A study of Mus musculus with 8 samples.

Results

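The receptors, kinases and partner transcription factors through which cells read interferons were followed in Yumm5.2, a mouse melanoma cell line whose strain is labelled C57B/6J. The group comprises 9 genes taken by symbol: Ifnar1, Ifnar2, Ifngr1, Ifngr2, Jak1, Jak2, Tyk2, Stat2 and Irf9. They are 9 of the 55492 genes in the expression tables, and all 9 had enough counts to be tested. Transcripts were measured by RNA sequencing of polyA RNA in 4 libraries from cells given 4-OI (4-octyl itaconate, an ester of itaconate that enters cells; the labels call this group itaconate-treated), and in 4 libraries from cells given DMSO, the solvent control. Both groups were cultured for 20 h. The sources used here do not give the dose, the labels mention no added interferon, and no library is titled for itaconate itself. Beyond a mention of separate experiments, nothing states that the 4 libraries of a group came from separate cultures, and p-values therefore speak to the variation among these libraries alone, which may be technical.

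Type I interferons bind a receptor made of the IFNAR1 and IFNAR2 chains, and type II interferon binds IFNGR1 and IFNGR2. The chains have no kinase activity of their own and carry Janus kinases instead: TYK2 on IFNAR1, JAK1 on IFNAR2 and IFNGR1, and JAK2 on IFNGR2. Activated kinases phosphorylate STAT proteins. After type I interferon, STAT2 joins a partner STAT and the DNA-binding protein IRF9 in the complex ISGF3, which binds the interferon-stimulated response element (ISRE) of target genes. Type II interferon signals mainly through STAT dimers that bind the gamma-activated site (GAS). Stat2 and Irf9 are themselves known as interferon-stimulated genes, so their transcripts belong to the output of the pathway as well as to its machinery.

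Total counts ranged from 25664999 to 31185027 in the 4-OI libraries and from 22962963 to 31361677 in the DMSO libraries. All 7 NRF2 target genes used as a check of treatment rose with 4-OI, with a median log2 fold change of 2.43 (edgeR), led by Hmox1 (2.95), Srxn1 (2.79), Nqo1 (2.73) and Slc7a11 (2.43). The melanocyte markers Sox10, Pmel, Mlana, Tyr, Tyrp1, Dct and S100b had at most 8 counts in any library, and only Mitf of the 8 markers could be tested (log2 fold change 0.64, called higher). Summed over the 8 markers the level was 9.82 to 10.9 CPM (TMM-scaled counts-per-million) with 4-OI and 6.45 to 7.51 CPM with DMSO. The immune cell markers Nkg7, Adgre1 and Lyz2 were at 0 in all libraries, and the immune marker list summed to 1.47 to 2.3 CPM with 4-OI against 1.93 to 2.47 CPM with DMSO. Most of that sum came from Cd68, the only immune marker tested, at a mean of 1.67 CPM with 4-OI and 1.88 CPM with DMSO. Cd68 was not called (edgeR adjusted p = 0.413). Markers of fibroblasts, endothelium and keratinocytes summed to 167 to 182 CPM with 4-OI and 195 to 212 CPM with DMSO, mostly from Pdgfra (0.10, called higher) and Pdgfrb (-0.48, called lower). The groups overlapped for Pdgfra, and its call ended without 4-OI replicate 3 or DMSO replicate 1 (edgeR adjusted p = 0.0580 and 0.0517) and in limma (adjusted p = 0.336 to 0.3996). Col1a1 and Dcn (both -1.39) were also called lower, and Kdr was at 0 throughout. The part of these marker levels in the results was not tested.

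Treatment with 4-OI was followed by lower transcript levels of most of the interferon reception machinery, by modest amounts. Of the 9 genes, 6 were lower (Ifnar1, Ifngr1, Ifngr2, Jak2, Stat2 and Irf9), 1 was higher (Tyk2), and Ifnar2 and Jak1 did not pass the call threshold, an adjusted p under 0.05 (edgeR's quasi-likelihood test, Benjamini-Hochberg adjustment over all genes tested). Over all 13531 genes tested, 19.6% were called lower and 19.3% higher, 38.8% in all. By level alone, 7 of the 9 had every 4-OI library below every DMSO library, as had 18.0% of all genes tested, and 1 had every 4-OI library above, as had 17.4%. The median log2 fold change of the 9 genes was -0.21, against 0.0005 over all genes tested. The changes ran from a log2 fold change of -0.67 for Irf9 to 0.21 for Tyk2, and none reached a factor of 2. In bulk RNA, fewer cells that express a gene and less of its RNA per cell cannot be told apart.

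**Figure D1:**
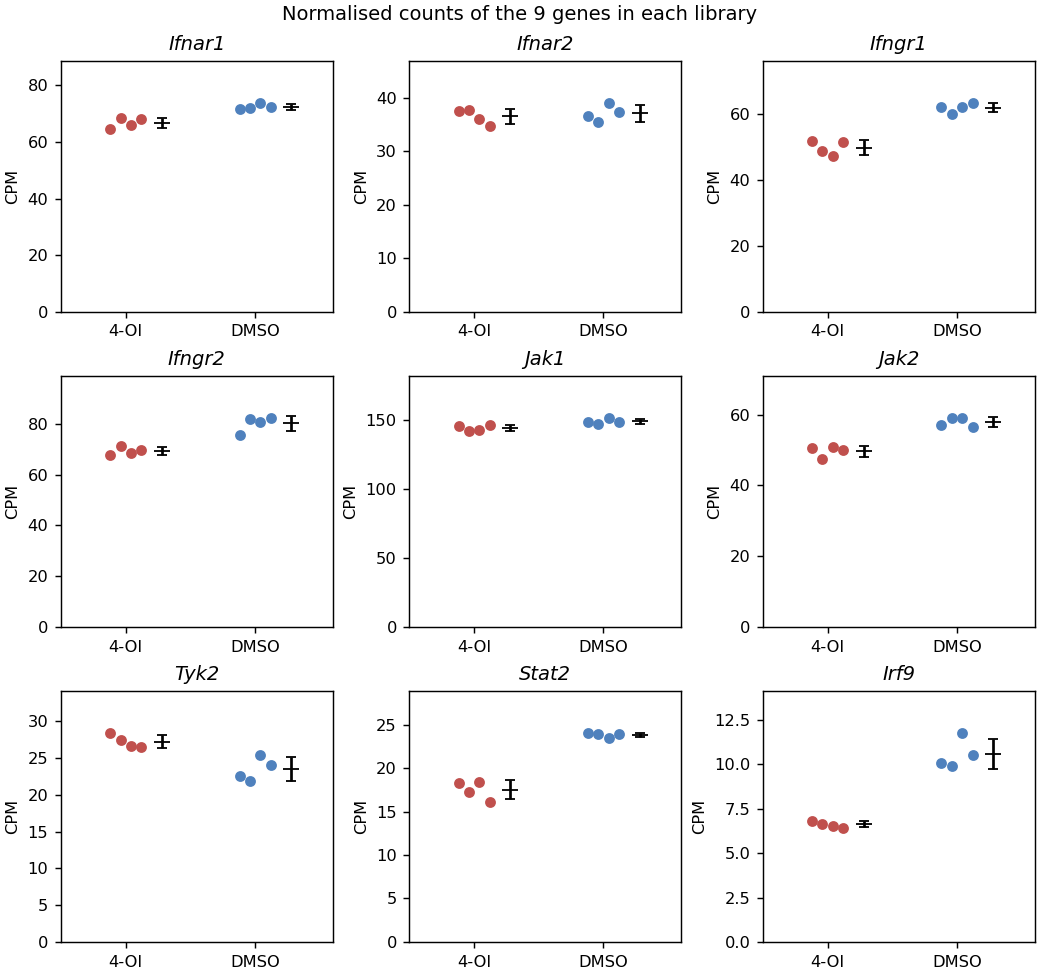
Normalised counts-per-million (CPM, y axis from 0) of each of the 9 genes in the 4-OI libraries (red) and the DMSO libraries (blue); each point is 1 library, and the black bar is the mean with its SD (n = 4). The groups are fully apart in 8 of the 9 genes, with 4-OI below DMSO in 7 and above it in Tyk2, and they overlap in Ifnar2.

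Ifnar1, the chain that carries TYK2 (ENSMUSG00000022967, GRCm38 chromosome 16, 91485238 to 91507441), had 64.5, 68.3, 65.9 and 68.0 CPM in the 4-OI libraries and 71.5, 72.1, 73.8 and 72.2 CPM in the DMSO libraries. Every 4-OI library lay below every DMSO library, although the gap was small. It fell by 7.86% (log2 fold change -0.12, SE 0.03, edgeR adjusted p = 0.00363), and on log2(FPKM + 1) the limma adjusted p was 0.0589. Ifnar2, the other type I chain and the one that binds interferon tightly (ENSMUSG00000022971, chromosome 16, 91372783 to 91405589), had 37.6, 37.8, 36.1 and 34.7 CPM with 4-OI and 36.6, 35.4, 39.1 and 37.4 CPM with DMSO. The groups overlapped, and the log2 fold change of -0.02 had a 95% interval from -0.11 to 0.06 (edgeR adjusted p = 0.691).

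Both chains of the type II receptor fell. Ifngr1, the ligand-binding chain (ENSMUSG00000020009, chromosome 10, 19591949 to 19610229), had 51.7, 48.8, 47.2 and 51.5 CPM with 4-OI and 62.1, 60.0, 62.0 and 63.3 CPM with DMSO. The highest 4-OI library stayed more than 8 CPM under the lowest DMSO library, and the level fell by 19.6% (95% interval of the change -23.6% to -15.3%, edgeR adjusted p = 5.66e-07). Ifngr2, the chain that brings in JAK2 (ENSMUSG00000022965, chromosome 16, 91547072 to 91565623), had 67.9, 71.3, 68.5 and 69.8 CPM with 4-OI and 75.8, 82.0, 80.8 and 82.4 CPM with DMSO. The groups did not overlap, with DMSO replicate 1 the nearest to the 4-OI libraries, and the level fell by 13.5% (95% interval of the change -17.5% to -9.42%, edgeR adjusted p = 2.70e-05).

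The 3 kinases went separate ways. Jak1, which serves both receptors (ENSMUSG00000028530, chromosome 4, 101152367 to 101265282), had 145.6, 142.3, 142.9 and 146.3 CPM with 4-OI and 149.0, 147.5, 151.7 and 148.9 CPM with DMSO. All 4-OI libraries lay below all DMSO libraries by a narrow margin, with a log2 fold change of -0.05 and a 95% interval from -0.10 to -0.0007. It was not called (edgeR adjusted p = 0.102), but with a correction for GC content and length it was called lower (-0.06 on the log2 scale, edgeR adjusted p = 0.0350). That correction also moved the median log2 fold change of all genes from 0.0005 to -0.0113. It raised the number of genes called lower from 2646 to 3052, so the Jak1 call is not particular to Jak1.

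Jak2, the kinase of IFNGR2 (ENSMUSG00000024789, chromosome 19, 29251828 to 29313080), had 50.5, 47.4, 50.8 and 50.01 CPM with 4-OI and 57.1, 59.0, 59.1 and 56.6 CPM with DMSO. The groups were well apart, and the level fell by 14.2% (log2 fold change -0.22, SE 0.03, edgeR adjusted p = 2.37e-05). Tyk2, the kinase of IFNAR1 (ENSMUSG00000032175, chromosome 9, 21104068 to 21131243), was the 1 gene that rose. It had 28.4, 27.4, 26.6 and 26.5 CPM with 4-OI and 22.5, 21.9, 25.5 and 24.0 CPM with DMSO. DMSO replicate 3 came within about 1 CPM of the lowest 4-OI library, without overlap, and the level was 16.0% higher (log2 fold change 0.21, SE 0.05, edgeR adjusted p = 0.00202). An antisense gene, 1700084C06Rik, overlaps most of Tyk2 and had at most 1 count in any library. The overlap is of whole gene spans, and whether the exons overlap was not examined. No source used here states the strand setting of the counting, so any reads from shared bases may not be told apart.

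The largest changes were at the nuclear end. Stat2, a STAT of ISGF3 (ENSMUSG00000040033, chromosome 10, 128270559 to 128292849), had 18.3, 17.2, 18.4 and 16.1 CPM with 4-OI and 24.0, 23.9, 23.5 and 23.9 CPM with DMSO. The DMSO libraries were nearly identical to one another, and all 4-OI libraries lay well below them. The level fell by 26.6% (95% interval of the change -31.8% to -21.0%, log2 fold change -0.45, edgeR adjusted p = 5.92e-07). Irf9, the DNA-binding subunit of ISGF3 (ENSMUSG00000002325, chromosome 14, 55603571 to 55610030), had the lowest TPM of the 9 in both groups; its levels were 6.84, 6.63, 6.56 and 6.44 CPM with 4-OI and 10.06, 9.90, 11.8 and 10.5 CPM with DMSO. The 4-OI libraries were tightly grouped far below the DMSO libraries, of which replicate 3 was the highest. The level fell by 37.3% (95% interval of the change -43.4% to -30.6%, log2 fold change -0.67, edgeR adjusted p = 2.02e-07). In these libraries 2.48% of all tested genes had a lower fold change than Irf9 and 5.54% a lower one than Stat2. Irf9 overlaps Rnf31 by 123 bases on the same strand, and Rnf31 itself had a log2 fold change of -0.10 and was not called (edgeR adjusted p = 0.208).

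**Figure D2:**
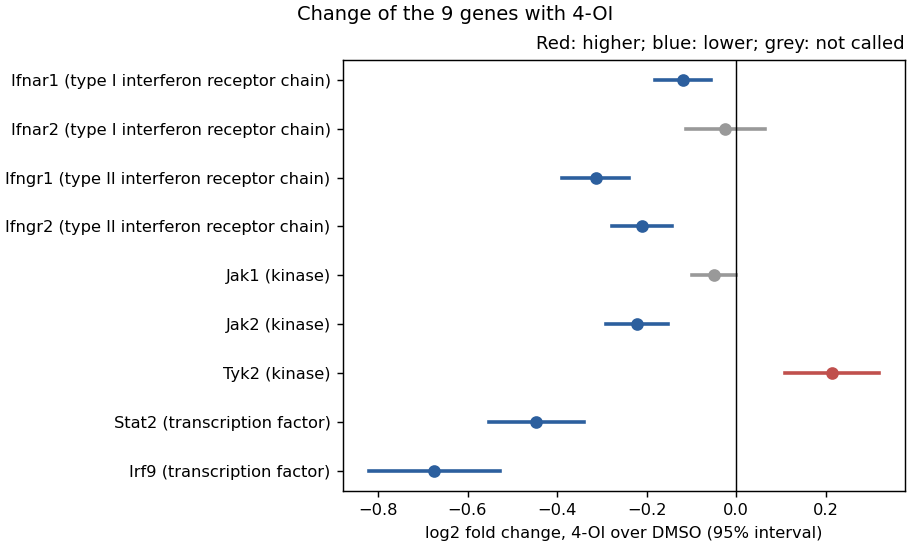
Log2 fold change of each gene, 4-OI over DMSO (x axis), with its 95% interval from the edgeR fit; genes run down the page by role. Irf9 at -0.67 and Stat2 at -0.45 stand furthest below 0, Tyk2 at 0.21 lies above it, and the grey points of Ifnar2 and Jak1 were not called.

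The promoter windows of these genes were searched for the letters of the elements that the pathway uses. RefSeq windows for GRCm38.p6, from 250 bases before to 50 bases after each annotated start, were at hand for all 9 genes, with a pair of starts for Irf9 and so 10 windows. The motifs, read on both strands, were the ISRE core, which is TTTC, any 2 bases and TTTC, the GAS motif TTCNNNGAA, which is its own reverse complement, and the core of the antioxidant response element TGACNNNGC, which NRF2 binds. The ISRE core was found in 1 of the 10 windows, that of Stat2, 222 bases before the start (chromosome 10, 128270276 to 128270285), against 3.44% of all 32851 windows. GAS letters were found in 2 of the 10, those of Ifnar1 and Ifnar2, against 8.30% of all windows, and the antioxidant core in 0 of the 10, against 12.4%. A match is a run of letters and not a measured binding site. The windows below, to 10 bases after the start, show where these letters lie in the gene with the second largest fall and in the type I receptor pair, and 1 of the 2 Irf9 windows is given for comparison. Capitals mark the matched motif. The Irf9 window holds none of the 3 motifs, which says nothing beyond these letters in this window. Both Irf9 windows begin past the lower gene coordinate given above (55603571), so sequence before that coordinate was not searched.
Stat2, plus strand, chr10:128270248-128270507: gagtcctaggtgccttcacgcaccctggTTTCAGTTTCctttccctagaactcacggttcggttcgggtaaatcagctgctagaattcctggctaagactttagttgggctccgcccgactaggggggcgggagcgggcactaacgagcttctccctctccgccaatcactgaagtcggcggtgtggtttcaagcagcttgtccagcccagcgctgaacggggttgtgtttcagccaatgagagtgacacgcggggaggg
Ifnar1, plus strand, chr16:91484965-91485224: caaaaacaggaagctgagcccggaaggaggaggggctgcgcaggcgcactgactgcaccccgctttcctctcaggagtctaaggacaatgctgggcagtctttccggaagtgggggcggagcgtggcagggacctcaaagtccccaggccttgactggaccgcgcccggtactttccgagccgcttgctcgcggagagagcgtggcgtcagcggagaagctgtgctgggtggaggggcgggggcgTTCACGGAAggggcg
Ifnar2, plus strand, chr16:91372533-91372792: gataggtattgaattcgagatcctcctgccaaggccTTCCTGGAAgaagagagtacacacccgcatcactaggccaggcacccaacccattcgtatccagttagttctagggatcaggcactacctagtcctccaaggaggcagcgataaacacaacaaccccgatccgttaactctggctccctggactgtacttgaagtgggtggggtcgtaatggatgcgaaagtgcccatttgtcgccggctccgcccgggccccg
Irf9, plus strand, chr14:55603735-55603994: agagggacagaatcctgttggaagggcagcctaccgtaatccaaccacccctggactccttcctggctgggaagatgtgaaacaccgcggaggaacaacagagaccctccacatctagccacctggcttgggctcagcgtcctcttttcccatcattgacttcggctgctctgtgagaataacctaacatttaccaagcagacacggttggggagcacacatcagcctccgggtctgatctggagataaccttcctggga
The Stat2 motif stands far upstream of the start, the Ifnar1 match spans the start itself, and the Ifnar2 match lies 214 bases before it. The gene with the Ifnar1 match was called lower and the one with the Ifnar2 match was not called.

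Compared per length, in transcripts-per-million (TPM), Jak1, Ifnar2 and Ifngr1 led and Irf9 came last. In 4-OI cells the order of mean TPM was Jak1 at 45.8, Ifnar2 at 44.4, Ifngr1 at 39.3, Ifngr2 at 30.1, Ifnar1 at 26.4, Jak2 at 16.4, Tyk2 at 8.90, Stat2 at 8.89 and Irf9 at 4.25. In DMSO cells it was Ifngr1 at 48.8, Jak1 at 46.3, Ifnar2 at 44.3, Ifngr2 at 34.5, Ifnar1 at 28.4, Jak2 at 19.1, Stat2 at 12.95, Tyk2 at 7.63 and Irf9 at 6.91. Neighbours whose ranges over the 4 libraries overlapped were Jak1 with Ifnar2 and Tyk2 with Stat2 under 4-OI, and Ifngr1 with Jak1, Jak1 with Ifnar2 and Tyk2 with Irf9 under DMSO. Every other pair of neighbours was separated in all libraries of its group. Ifngr1 thus stood below Ifnar2 in all 4 libraries with 4-OI and above it in all 4 DMSO libraries. Over all libraries, the TPM percentile among the genes tested was 75.0 for Jak1 and 29.8 for Irf9.

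Ratios of TPM within a library do not depend on how libraries are scaled, so 6 ratios were examined. All were of partners in signalling except Ifnar1 to Ifngr1, which sets chains of different receptors against each other. The test was an exact permutation test, two-sided, over the 70 arrangements of 4 against 4 libraries, and its smallest p is 0.0286. The ratio of Jak1 to Tyk2 was 4.81, 5.35, 5.15 and 5.29 with 4-OI and 6.22, 6.37, 5.83 and 5.90 with DMSO. All 4-OI libraries were lower (log2 difference -0.24, exact p = 0.0286, 0.0571 after Benjamini-Hochberg adjustment over the 6 ratios). The ratio of Jak1 to Jak2 was higher in all 4-OI libraries, at 2.80 ± 0.198 with 4-OI against 2.42 ± 0.0724 with DMSO (SD, n = 4; log2 difference 0.21, exact p = 0.0286, adjusted 0.0571). The same held for Ifnar1 to Ifngr1, at 0.673 ± 0.0215 with 4-OI and 0.582 ± 0.0187 with DMSO (SD, n = 4; log2 difference 0.21, exact p = 0.0286, adjusted 0.0571). These adjusted values miss 0.05, but each ratio stood at the smallest possible p. Their adjusted value was therefore set by how many of the 6 ratios reached that p. With expected counts in place of TPM it was 0.0429, because Stat2 to Irf9 reached that p as well. In counts the log2 difference was smaller for Jak1 to Jak2 (0.17) and Ifnar1 to Ifngr1 (0.19), and larger for Jak1 to Tyk2 (-0.27).

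For the remaining 3 ratios the groups overlapped. Ifnar1 to Ifnar2 was 0.596 ± 0.0333 with 4-OI and 0.642 ± 0.0267 with DMSO (SD, n = 4), with overlapping groups (exact permutation p = 0.0571, adjusted 0.0857). Ifngr1 to Ifngr2 was 1.31 ± 0.0898 with 4-OI and 1.42 ± 0.0925 with DMSO (SD, n = 4; exact permutation p = 0.143, adjusted 0.171). Stat2 to Irf9 was 1.84, 2.08, 2.22 and 2.26 with 4-OI and 1.89, 1.92, 1.65 and 2.09 with DMSO. The groups overlapped in TPM (log2 difference 0.16, exact permutation p = 0.2, also 0.2 adjusted), but in expected counts the log2 difference was 0.23 and the adjusted exact p 0.0429.

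**Figure D3:**
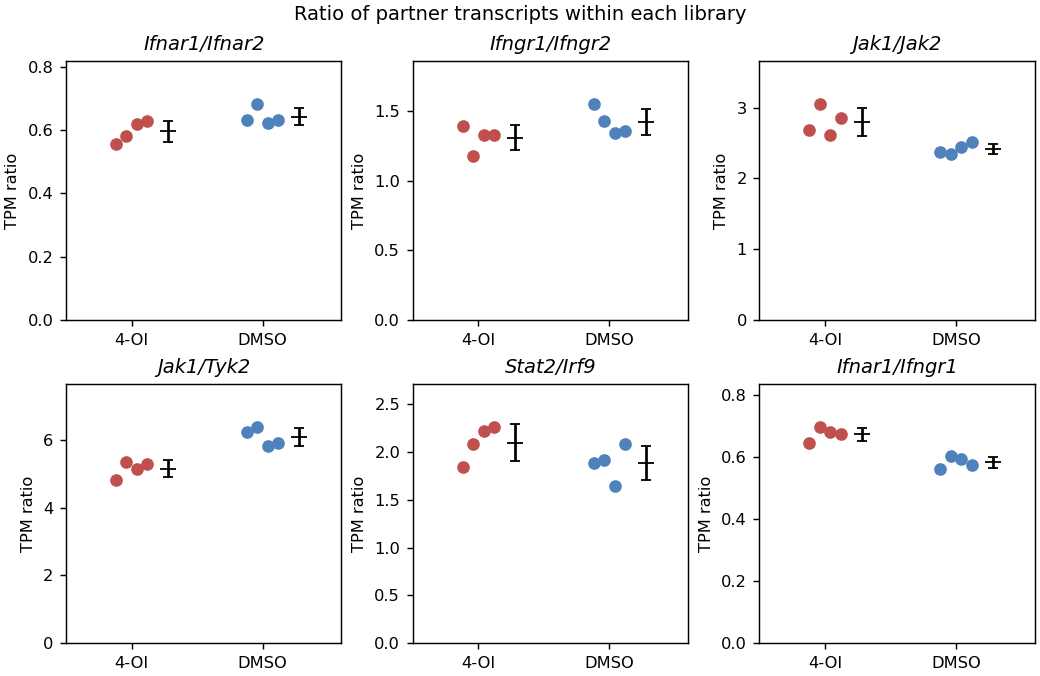
Ratio of TPM of the named genes within each library (y axis from 0), 4-OI in red and DMSO in blue; each point is 1 library and the bar is the mean with its SD (n = 4). The 4-OI libraries lie apart from the DMSO libraries for Jak1/Jak2 and Ifnar1/Ifngr1, where they are higher, and for Jak1/Tyk2, where they are lower; the other 3 ratios overlap.

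Expected counts and FPKM together give the effective transcript length that the authors' quantification implied for a gene in each library. This is not the transcript length itself. It depends on the mix of isoforms estimated and also on the fragment sizes of the library. For Stat2 it was 2930, 2931, 2533 and 2461 bases in the 4-OI libraries and 2578, 2665, 2410 and 2392 bases in the DMSO libraries. The groups overlapped, but the median was 2731 bases with 4-OI and 2494 bases with DMSO, and the fall of Stat2 was larger per length (log2 fold change -0.54 on log2(TPM + 0.1), limma adjusted p = 0.000396) than in counts. For Ifnar2, which is known to have membrane-bound and soluble isoforms in the mouse, it was 1104 to 1177 bases with 4-OI and 1123 to 1173 bases with DMSO. The lengths of the 2 groups overlapped for all 9 genes.

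Ifnar2, Ifnar1 and Ifngr2 lie side by side on the plus strand of chromosome 16, together with Il10rb, the shared chain of the interleukin-10 and type III interferon receptors, within 192.8 kb. Along the chromosome the log2 fold changes were -0.02 for Ifnar2, -0.10 for Il10rb (edgeR adjusted p = 0.123), -0.12 for Ifnar1 and -0.21 for Ifngr2. The next coding genes were Tmem50b, at 0.02 and not called (edgeR adjusted p = 0.712), Dnajc28, which rose (0.59, edgeR adjusted p = 0.00276), and Gart, an enzyme of purine synthesis, which fell (-0.10, edgeR adjusted p = 0.0153). Of the 4 receptor genes, Ifnar1 and Ifngr2 were called lower. Il10rb and Ifnar2 were not called, and the sign of Ifnar2 changed in some alternative analyses. The genes beyond these 4 differed in sign. Dnajc28 overlaps the antisense gene Gm15964, which was not called (0.50, edgeR adjusted p = 0.244). Gm21970, annotated over part of Ifnar2 on the same strand, had no counts in any library.

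**Figure D4:**
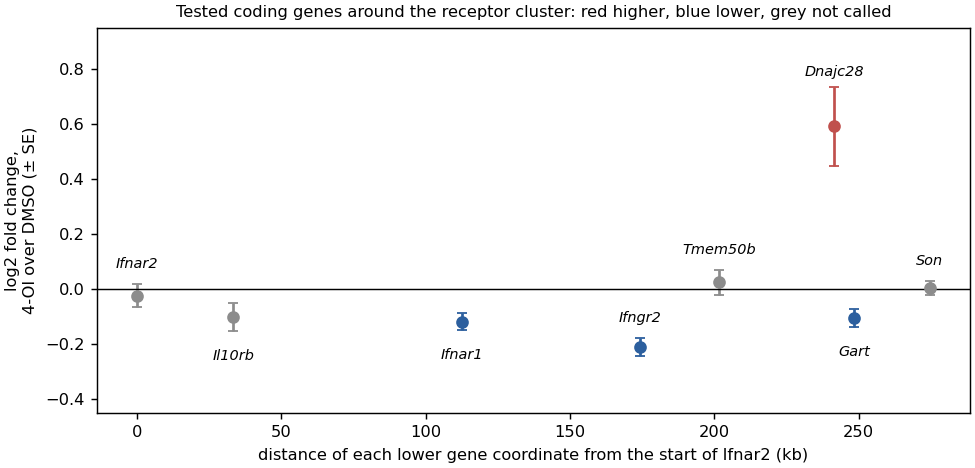
Log2 fold change, 4-OI over DMSO, with its standard error (y axis), of the tested coding genes of the receptor cluster by distance of their lower coordinate from the start of Ifnar2 in kb (x axis). Ifnar2, Il10rb, Ifnar1 and Ifngr2 lie between -0.02 and -0.21, and Dnajc28 stands at 0.59.

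Interferon transcripts themselves were at the limit of detection. Of 10 interferon genes, 9 (Ifnb1, Ifna1, Ifna2, Ifna4, Ifna5, Ifnk, Ifng, Ifnl2 and Ifnl3) had 0 counts in all 8 libraries, which at 3 counts per library allows up to 0.0962 to 0.117 CPM in the 4-OI libraries and 0.0957 to 0.131 CPM in the DMSO libraries. These limits cover counting error only. Ifne, an epithelial type I interferon, had 0 to 4 counts with 4-OI and 0 to 1 with DMSO.

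Most targets of the pathway were lower, where 19.6% of all genes tested were called lower. Among 27 tested targets of type I interferon 23 were lower, and the median of the 27 was -0.94 on the log2 scale. DESeq2 called 21 of them lower and limma 20. Some low-count targets, such as Mx2 (3 to 6 counts with 4-OI and 18 to 24 with DMSO), passed the filter through their DMSO libraries alone. Their lower calls are therefore not independent of the filter. With a stricter filter (1 CPM or more in 4 or more libraries), 20 were called lower. Among those at 1 CPM or more, the largest falls were those of Cmpk2 (-1.95), Ifit3 (-1.78), Irf7 (-1.77) and Zbp1 (-1.64). Trim25, a ubiquitin ligase of RNA sensing, rose (0.21, edgeR adjusted p = 6.73e-06), and Oasl1, Herc6 and Eif2ak2 were not called. Of 13 tested targets of type II interferon 12 were lower, with a median of -0.85, and with the stricter filter 11 were lower. Irf8, 1 of the 12, had overlapping groups and was not called by DESeq2 (adjusted p = 0.119) or limma on log2(TPM + 1) (adjusted p = 0.308). Its call also ended when any library other than DMSO replicate 1 was left out (edgeR adjusted p = 0.0504 to 0.181). Among those at 1 CPM or more, the largest falls were those of the GTPase genes Igtp (-1.90), Gbp3 (-1.57) and Irgm2 (-1.25) and the chemokine gene Cxcl10 (-1.49). Cd274 (0.12) was not called (edgeR adjusted p = 0.756), and 0 were higher by edgeR, by DESeq2 or at an unadjusted edgeR p under 0.05. Beside these medians, that of the 4 receptor chains was -0.16, that of the 3 kinases -0.05 and that of the Stat2 and Irf9 pair -0.56.

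Genes that sense nucleic acids and induce interferon gave 4 lower and 2 higher of 12 tested, with a median of 0.04. Of all genes tested, 19.6% were called lower and 19.3% higher. The RNA sensors Ddx58, at 42.1 ± 1.39 CPM with 4-OI and 68.2 ± 1.503 CPM with DMSO, and Ifih1, at 6.27 ± 0.423 CPM with 4-OI and 13.3 ± 0.947 CPM with DMSO (SD, n = 4), had log2 fold changes of -0.695 and -1.08 and were called lower. Irf5 (-0.70) was also lower, as was Irf7 (-1.77), which the list of type I targets also holds. The kinase gene Tbk1 (0.15) was higher with edgeR, though limma on log2(TPM + 1) gave an adjusted p of 0.146, as was Sting1 (0.11), whose call (edgeR adjusted p = 0.0426) ended without 4-OI replicate 1, 2 or 3 or DMSO replicate 1, 3 or 4 (edgeR adjusted p = 0.0606 to 0.146) and with DESeq2 (adjusted p = 0.0942).

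Of 17 tested brakes of the pathway 2 were higher and 5 lower, a share near the 38.8% called over all genes, with a median of -0.04. Socs1, which blocks JAK activity, had 15.6 ± 0.690 CPM with 4-OI and 12.9 ± 0.805 CPM with DMSO (SD, n = 4), 0.28 on the log2 scale (edgeR adjusted p = 0.000588). Socs3, the brake of gp130 receptors, had 26.4 ± 1.08 CPM with 4-OI and 33.7 ± 2.94 CPM with DMSO (SD, n = 4), -0.35 on the log2 scale (edgeR adjusted p = 3.59e-05). Socs2 was the other gene called higher (0.25), a call that ended without 4-OI replicate 2 or 3 or DMSO replicate 1 (edgeR adjusted p = 0.0525 to 0.0669) and with DESeq2 (adjusted p = 0.0808). Usp18, which displaces JAK1 from IFNAR2 and is itself an interferon target, had 0 to 3 counts with 4-OI and 12 to 20 with DMSO (edgeR adjusted p = 1.27e-05). It passed the filter through its DMSO libraries alone. With the stricter filter it was not tested, and 4 brakes were called lower. The phosphatase gene Ptpn6 (-0.39), Socs5 (-0.13) and Ptpn2 (-0.11) were the other 3 called lower. Ptpn6 was not called by DESeq2 (adjusted p = 0.0616). The call of Ptpn2 ended without 4-OI replicate 2 or 3 or DMSO replicate 1 (edgeR adjusted p = 0.0556 to 0.0635).

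Other receptor chains that use Janus kinases gave 2 higher and 6 lower of 17 tested, with a median of -0.10, where 19.3% of all genes tested were called higher and 19.6% lower. With the stricter filter, which left out the low-count Il13ra2, 2 were higher and 5 lower. Il4ra, the interleukin-4 receptor chain, had 45.9 ± 2.57 CPM with 4-OI and 32.6 ± 0.883 CPM with DMSO (SD, n = 4), or 0.49 in log2 units (adjusted p = 1.78e-08, edgeR), and Il12rb1 (0.75), the other called higher, was not called by limma on log2(TPM + 1) (adjusted p = 0.165). Ghr, the growth hormone receptor, had 120.8 ± 3.25 CPM with 4-OI and 178.8 ± 9.31 CPM with DMSO (SD, n = 4), and Il2rg (-1.34), Il6ra (-0.34) and Il13ra1 (-0.33) were also lower. Of other genes of the kinase and STAT families, Stat6, which serves interleukin-4, fell (-0.11, edgeR adjusted p = 0.00105, limma on log2(TPM + 1) adjusted p = 0.145), Stat5a (0.02), Stat5b (-0.08) and Jak3 (-0.07) were not called, and Stat4 had no counts. Reads of Stat5a and Stat5b may be shared between these close copies.

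Genes that sort, degrade or fold the receptors and kinases gave 6 higher and 0 lower of 12 tested, with a median of 0.10. For comparison, 19.3% of all genes tested were called higher and 19.6% lower. With limma, and without DMSO replicate 1 or 4, 5 were called higher. None was lower by DESeq2 or at an unadjusted edgeR p under 0.05 either. With the GC and length correction 1 was called lower beside 6 higher. The same correction raised the genes called lower among all genes from 2646 to 3052. The HSP90 chaperone genes, on whose products Janus kinases depend, stood at 0.36 for Hsp90aa1 and 0.21 for Hsp90ab1. Also higher were Stam2 (0.23), whose product binds Janus kinases at endosomes, and Vps26a (0.19), a retromer subunit.

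**Figure D5:**
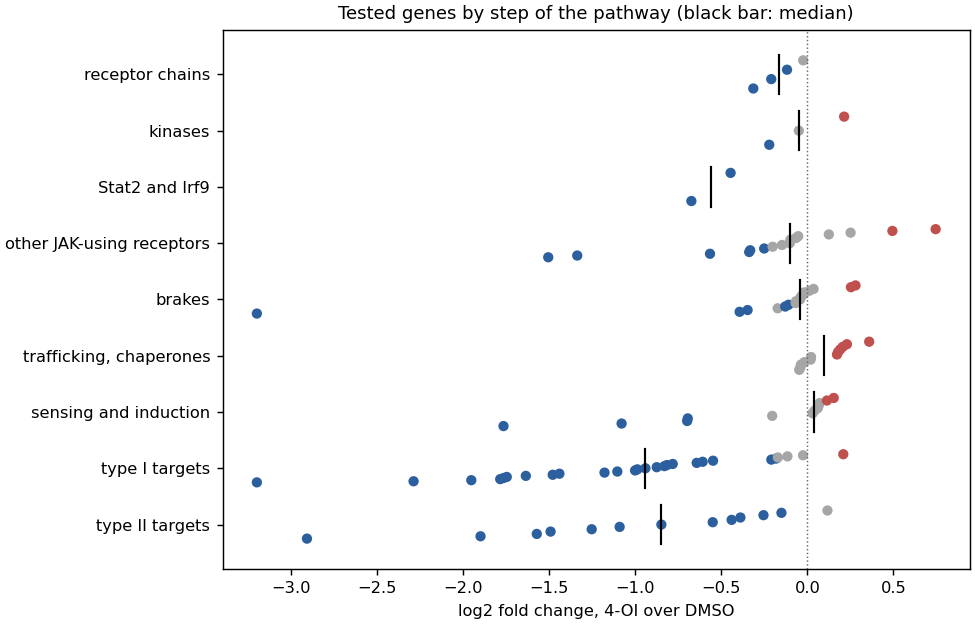
Log2 fold change, 4-OI over DMSO (x axis), of the tested genes in each list, with the receptor chains at the top and the interferon targets at the bottom. The lists between include other receptors that use Janus kinases, and trafficking and chaperone genes, which are not steps of interferon signalling. Red points were called higher, blue lower and grey not called, and the black bar is the median. The type I and type II targets have medians of -0.94 and -0.85, against -0.16 for the 4 receptor chains and -0.05 for the 3 kinases.

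Across the 8 libraries, the genes whose log2 CPM followed Irf9 most closely were Bhlhe40, Kdm4b and Spop (Pearson r = 0.997, 0.996 and 0.994). Those most like Stat2 were Cyth3, Lrrc8c and Frmd4a (r = 0.995, 0.995 and 0.994), and those most like Tyk2 were Zfp704, Arhgap35 and Stambp (r = 0.990, 0.986 and 0.979). These values describe 8 libraries that share 1 contrast between treatments, and they carry no test.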

How the data were processed

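RNA was sequenced in 4 libraries from cells given 4-OI and 4 from cells given DMSO, grouped by their titles. Per the labels' protocols, libraries used TruSeq chemistry and paired-end reads. The submitters' processing notes name cutadapt 2.3, FastQC 0.11.8, STAR 2.7.8a, RSEM 1.3.3, MultiQC 1.7 and GRCm38, without roles. No source used here gives the annotation release. The authors deposited expected counts per gene, whole numbers in every cell. They also deposited TPM and FPKM, which divide by length and depth.

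The expected counts, which needed no rounding, were tested with edgeR 4.0.16 in R 4.3.3 (filterByExpr with a minimum count of 10, TMM scaling, quasi-likelihood F test, no covariates, 4-OI over DMSO). P-values were Benjamini-Hochberg adjusted over the 13531 genes tested. The common coefficient of variation between libraries was 3.1%. Within groups, the chi-square of every pair of libraries was 1.89 to 4.80 times its degrees of freedom, above sampling noise, so each library counted once. TPM and FPKM were tested with limma 3.58.1, as alternatives beside DESeq2 1.42.0, other scalings and filters, a GC and length correction, the replicate number as a block, and each library left out. For 114 symbols found on several rows, values are those of the row with most counts on average. Positions came from GENCODE M21, of the same build. The fit was also run on simulated counts in which far fewer genes were changed than were called here. That run does not speak to changes as widespread as those in these data.

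The members and gene lists were chosen with earlier results of these data known. Beyond the 9 members, the text names by rule up to 4 called genes per list and direction by size of change at 1 CPM or more, all called where 5 or fewer, and the 3 genes most alike in log2(CPM + 0.5) for the members with the largest rise and falls, at 5 CPM or more. Any other named gene was picked with its values in view. A few genes covered by the rule are not reported here.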

Additional observations from a re-analysis of the deposited data

How the results depend on the processing

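The fold changes of the 9 genes and the counts of calls were recomputed under 19 alternatives and the 6 ratios under 12, 8 of which leave out 1 library in each case; the order of TPM, lengths, motif matches and correlations were not. In all 19, Tyk2 stayed higher and Ifngr1, Ifngr2, Jak2, Stat2 and Irf9 stayed lower at an adjusted p under 0.05; Irf9 ranged from -0.70 to -0.55 and Tyk2 from 0.18 to 0.25 on the log2 scale. Ifnar1 lost its call on log2(FPKM + 1) only (limma adjusted p = 0.0589). Jak1 was called lower with the GC and length correction, with and without the replicate block (-0.06 in both, edgeR adjusted p = 0.0438 and 0.0350). Without the block, that correction moved the median of all genes to -0.0113 and called 3052 genes lower, against 2646 in the main fit. Ifnar2, never called, changed sign on log2(TPM + 1) to 0.0032, on log2(TPM + 0.1) to 0.0033 and on log2(FPKM + 1) to 0.0112, and ranged from -0.045 to 0.0008 when 1 library was left out. The cause was not tested.

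Over all genes, limma called 1620, 1615 and 1535 lower on log2(TPM + 1), log2(TPM + 0.1) and log2(FPKM + 1), against 2646 with edgeR. Ratios of expected counts gave log2 differences of 0.17 for Jak1/Jak2, -0.27 for Jak1/Tyk2, 0.23 for Stat2/Irf9 and 0.19 for Ifnar1/Ifngr1. The adjusted exact p of each was 0.0429, where TPM gave 0.0571 or 0.2. Each reached the smallest possible exact p, whose adjusted value falls as more of the 6 ratios reach it.

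Deviations from the group mean correlated at 0.069, 0.07, -0.014 and -0.016 between libraries with the same number. Between unlike numbers the correlations were -0.117 to 0.041. With 4 libraries per group, these values cannot show whether the numbers mark a pairing. With the replicate block, 6 of the 9 genes were lower and 1 higher, as without it, and 2526 genes were higher and 2618 lower in all. Signs within replicate numbers gave an exact p of 0.125 for every ratio except Stat2/Irf9 (0.25), where 0.125 is the smallest possible. No library of any of the 9 genes stood apart from its group by Dixon's criterion. Depth limits statements on the interferon genes, and not on the 9 members, which had 177 to 4647 counts per library.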
